A study of Bos taurus with 2 samples.

Results

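The miRNAs described here belong to mir-33, mir-122 and mir-378, families best known for their part in cholesterol and fat metabolism. They were chosen by name, with earlier results of these data known. The rule took all arms of mir-33a, mir-33b and mir-122 in the table of known bovine miRNAs. It also took any arm of an entry there with a name that begins with mir-378. The rule gave 3 entries, mir-33a-5p, mir-33b-5p and mir-122-5p, of 283 known miRNAs and of 884 unique miRNAs in all. It matched 0 entries for mir-378, and a known bovine mir-378 was not analysed here. The lactation library came from the mammary gland (MG) of 1 Holstein cow that was 6 years old and had been in milk for 2 months. The non-lactation library came from the MG of 1 Holstein cow that was 4 years old and neither pregnant nor lactating. Stage, age and individual cow cannot be told apart in these 2 libraries, and no difference given below was checked here in a replicate library. The paper also ran a microarray on RNA pooled from 3 cows per stage, and real-time PCR for some miRNAs. Those measurements were not used here. The study compared the miRNAs of the gland in milk with those of the gland at rest, and for this group of miRNAs the question is how their levels differed between the libraries.

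A miRNA is cut from a hairpin precursor, which can release a mature strand from its 5p arm and another from its 3p arm, and it recognises target mRNAs mainly through its seed, the bases after the first. The mir-33 genes sit inside the genes of the sterol regulatory element binding proteins: mir-33a within SREBF2, which drives cholesterol synthesis, and mir-33b within SREBF1, which drives fatty acid synthesis and is a regulator of milk fat synthesis. In human and mouse cells mir-33 represses ABCA1, the exporter of cellular cholesterol, and enzymes of fatty acid oxidation. The liver is the main site of mir-122, where in the mouse it sustains cholesterol synthesis, and in human and mouse mir-378 is made from an intron of PPARGC1B, a coactivator of mitochondrial genes.

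The mature sequences listed for the 3 miRNAs are shown because their seeds, in capitals (bases 2 to 8), group them.
mir-33a-5p: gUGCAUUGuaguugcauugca
mir-33b-5p: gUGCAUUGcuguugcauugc
mir-122-5p: uGGAGUGUgacaaugguguuu
Both mir-33 miRNAs had the seed UGCAUUG, which no other of the 884 unique entries carried. Over the 20 positions that both sequences cover they were identical at 18. The differences, counted from the 5′ end with the base of mir-33a-5p first, were U9C and A10U, just behind the seed. The seed GGAGUGU of mir-122-5p was found in that entry alone. The hairpins lie at chr5:120037611-120037679 for mir-33a (69 nt), at chr19:35685568-35685661 for mir-33b (94 nt) and at chr24:59932223-59932307 for mir-122 (85 nt), all on the plus strand of the bovine build BTA 4.0 that the authors used. In the RefSeq annotation of the later assembly ARS-UCD 2.0, genes of the same names had hairpins of the same lengths on the same chromosomes. There mir-33a lay within SREBF2 and mir-33b within SREBF1, while no other listed gene spanned mir-122. No further miRNA of the series was listed within 10 kb of any of the 3 hairpins.

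All 3 miRNAs had a higher normalised read count (RPM, reads scaled to a common library size) in the lactation library than in the non-lactation one, with the largest ratio for mir-33b-5p, and the difference passed the test for both mir-33 miRNAs. A value here counts the reads of a miRNA's leading sequence, its most abundant isomiR, and RPM scales it to the clean reads of the library. Summed over all miRNAs, these reads came to 5745961 in lactation, against 7879028 in non-lactation. Each ratio divides the RPM in lactation by that in non-lactation and is given with exact Clopper-Pearson intervals at 95% that take the summed reads of the miRNA as given. They cover counting error alone, because 1 library per condition holds no measure of variation between cows or preparations. PCR makes many reads of a single molecule, so even the counting error may be larger than they show. Fisher's exact test, two-sided and with Bonferroni adjustment over 883 miRNAs at a threshold of 0.05, was run on the read counts and therefore sets library against library, not stage against stage.

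mir-33a-5p was the most abundant of the 3. It had 1819 reads in lactation, against 939 in non-lactation, which was 152 RPM against 58.8 RPM. By reads it ranked 71 of 283 known miRNAs in lactation and 90 in non-lactation, so it stood in the upper part of both. The ratio was 2.59 (2.39 to 2.80), with a Bonferroni-adjusted p of 7.38e-129 by Fisher's exact test. Of all 883 miRNAs tested, 17.4% were called higher in lactation by this rule and 10.9% lower. Calls were more frequent among the 273 miRNAs with at least 100 summed reads, at 42.1% higher and 31.9% lower. The median ratio was 1.18 over the 273 miRNAs with at least 100 summed reads and 1.31 over the 283 known miRNAs, and the ratio of mir-33a-5p lay above both.

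mir-33b-5p was much the rarer member of the family. There were 129 reads of it in lactation, against 18 in non-lactation, or 10.8 RPM against 1.13 RPM. Its rank among known miRNAs was 143 in lactation and 210 in non-lactation. The ratio was 9.56 (5.82 to 16.6; Fisher's exact test, Bonferroni-adjusted p = 7.59e-27). Among the 273 miRNAs with at least 100 summed reads it had the rank 10 by ratio, where mir-33a-5p had the rank 54.

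mir-122-5p was close to the lower end of what the libraries can measure. It had 15 reads in lactation, against 6 in non-lactation, which was 1.254 RPM (exact Poisson interval 0.702 to 2.07) against 0.376 RPM (0.138 to 0.818). The ratio of 3.34 had an interval of 1.22 to 10.5, and Fisher's exact test gave p = 0.0132 before adjustment and 1 after Bonferroni adjustment. With Benjamini-Hochberg adjustment the p was 0.0324 and mir-122-5p was called, as were 30.4% of all miRNAs in that direction. Its difference between the libraries thus rests on 21 reads in all and on the choice of adjustment.

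In the lactation library the order of levels was mir-33a-5p, mir-33b-5p and mir-122-5p, and no interval overlapped that of its neighbour. The non-lactation library had the same order, but there the intervals of mir-33b-5p (0.668 to 1.78 RPM) and mir-122-5p overlapped. All 3 mature strands are 20 or 21 nt long.

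**Figure D1:**
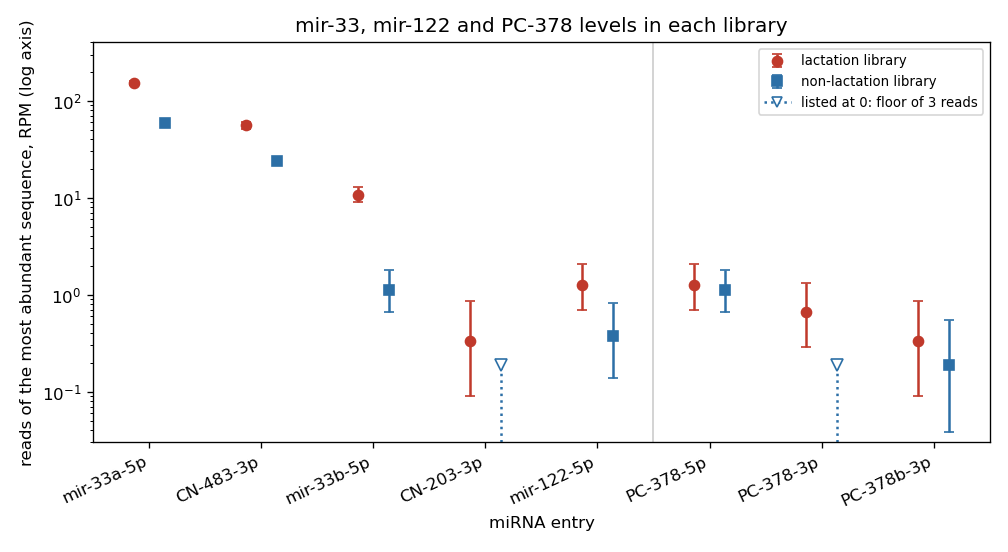
RPM of the most abundant sequence on a log axis for the 3 miRNAs, the other arms of their hairpins (CN-483-3p with mir-33a, CN-203-3p with mir-33b) and, right of the grey line, the PC-378 entries, which lie outside the rule. Points are the lactation library (red) and the non-lactation library (blue), bars are exact 95% Poisson intervals and open triangles mark the floor of 3 reads for an entry listed at 0; mir-33a-5p stood at 152 RPM against 58.8 RPM and mir-33b-5p at 10.8 RPM against 1.13 RPM.

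**Figure D2:**
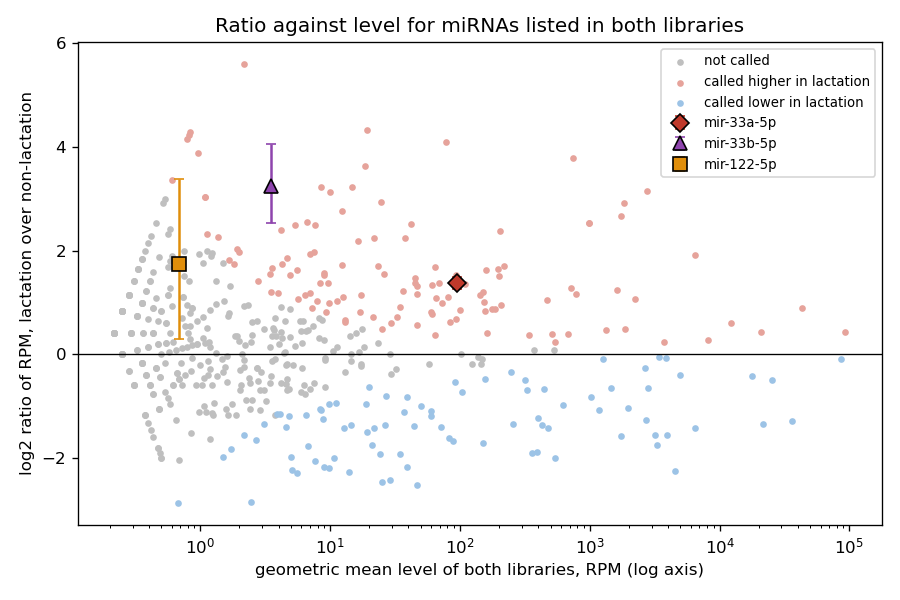
Log2 of the RPM in lactation over that in non-lactation, against the geometric mean level of both libraries in RPM (log axis), with 1 point for each miRNA above 0 in both libraries and colours for the calls of Fisher's exact test. The 3 miRNAs are drawn with 95% intervals and lie above 0 at log2 ratios of 1.37 (mir-33a-5p), 3.26 (mir-33b-5p) and 1.74 (mir-122-5p); at the level of mir-122-5p most miRNAs were not called.

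The ratio of mir-33b-5p was 3.70 times that of mir-33a-5p (2.23 to 6.48), a difference that does not depend on how the libraries are scaled, because the totals cancel. Fisher's exact test on the 4 read counts gave p = 1.35e-08 after Bonferroni adjustment over the 3 pairs compared. Put as a share of the reads of both mir-33 miRNAs, mir-33b-5p made up 6.62% (5.56% to 7.82%) in lactation, against 1.88% (1.12% to 2.96%) in non-lactation. The summed mir-33 reads were 1948 in lactation, against 957 in non-lactation, and mir-33a-5p supplied most of them in both. Their summed level was 163 RPM against 59.9 RPM, a ratio of 2.72 (2.51 to 2.94).

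Against mir-122-5p no difference was detectable at this depth. The ratio of mir-122-5p was 1.29 times that of mir-33a-5p, with an interval from 0.471 to 4.07 (exact test, adjusted p = 1). The ratio of mir-33b-5p was 2.87 times that of mir-122-5p, with an interval from 0.7996 to 9.09 (exact test, adjusted p = 0.260). Counted over all isomiRs, the length and sequence variants of a miRNA, the last of these was 2.93 (1.16 to 6.90) and its adjusted p by the exact test 0.0471, which is just past the threshold.

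The size of each ratio moved with the scaling, its direction did not. Over 6 other scalings the ratio of mir-33a-5p lay between 1.94 and 2.78, that of mir-33b-5p between 7.17 and 10.3 and that of mir-122-5p between 2.50 and 3.59. The lowest values came from the reads as they stand, with no scaling. TMM factors, which centre the bulk of the miRNAs, moved the median log2 ratio of the 273 miRNAs with at least 100 summed reads by -0.26, and under them mir-33a-5p had a ratio of 2.16 and mir-33b-5p one of 7.97. Reads of all isomiRs gave 2.51 for mir-33a-5p (2962 reads against 1578) and 9.79 for mir-33b-5p (286 reads against 39). The isomiRs other than the most abundant sequence are separate reads, and taken alone, a count chosen after seeing the data, they gave 2.39 (2.17 to 2.63) for mir-33a-5p and 9.98 (6.31 to 16.6) for mir-33b-5p.

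**Figure D3:**
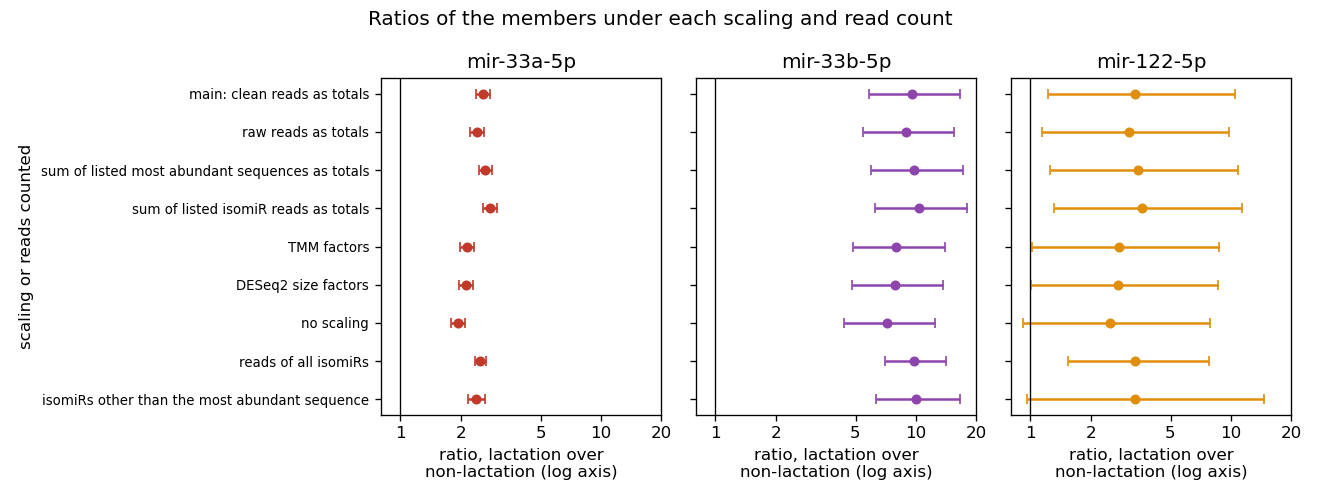
Ratios of the 3 miRNAs, lactation over non-lactation (log axis, 95% intervals as bars, vertical line at 1), under the main setting in the top row, 6 other scalings, and the reads of all isomiRs and of the other isomiRs alone. mir-33a-5p stayed between 1.94 and 2.78 and mir-33b-5p between 7.17 and 10.3 in every row, and the interval of mir-122-5p reached below 1 with no scaling and with the other isomiRs alone.

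Both arms of the mir-33 hairpins were found, with the 3p strands listed as predicted candidates (prefix CN) at the same coordinates as the known hairpins. They are shown beside the 5p strands above because their own seeds differ from that of mir-33.
CN-483-3p: cAAUGUUUccacagugcauca
CN-203-3p: cAGUGCCUcggcagugcagcca
CN-483-3p covers bases 46 to 66 of the mir-33a hairpin, in which mir-33a-5p covers bases 6 to 26, so that 19 nt lie between the arms. CN-203-3p covers bases 52 to 73 of the mir-33b hairpin and matches it but for its last base, C22A, counted from the 5′ end of the strand with the base of the hairpin first. Neither seed was shared by another of the 884 entries.

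The 3p strand of mir-33a was abundant in both libraries. CN-483-3p had 668 reads in lactation, against 384 in non-lactation, or 55.8 RPM against 24.0 RPM, and ranked 10 and 11 among the 505 CN miRNAs. Its ratio of 2.32 (2.04 to 2.64; Fisher's exact test, Bonferroni-adjusted p = 2.22e-38) stood near that of mir-33a-5p. The 3p strand took 26.9% (25.1% to 28.6%) of the reads of both arms in lactation, against 29.0% (26.6% to 31.6%) in non-lactation, a difference that Fisher's exact test did not call (p = 0.159). Over the reads of all isomiRs the share was 33.9% in lactation, against 37.3% in non-lactation, and the same exact test gave p = 0.00444, so whether the arm balance differed depended on the reads counted.

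Few hairpins of the series were so balanced. Of the 90 hairpins with a known arm, both arms listed and at least 100 reads in each library, the median share of the less abundant arm was 0.819% in lactation and 0.914% in non-lactation. mir-33a had the rank 6 of these 90 in lactation and 5 in non-lactation. The mir-33b hairpin differed in this respect, since CN-203-3p had 4 reads in the lactation library, 3.01% (0.825% to 7.52%) of both arms. In the non-lactation library it was listed at 0 beside 18 reads of mir-33b-5p, and a difference between the libraries was not detectable at this depth (Fisher's exact test, p = 1). The lowest value above 0 in the tables is 3 reads, and a listed 0 may stand for fewer.

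**Figure D4:**
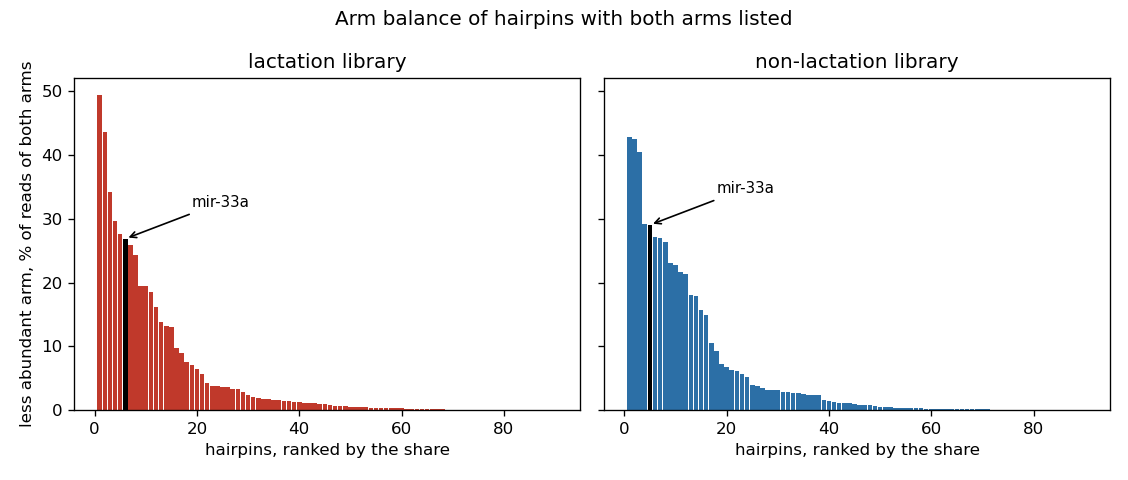
Share of the less abundant arm in the reads of both arms, in %, for the 90 hairpins with both arms listed and at least 100 reads in each library, ranked from the highest, with the lactation library on the left, the non-lactation library on the right. The black bar is the mir-33a hairpin, at 26.9% and rank 6 on the left, against 29.0% and rank 5 on the right.

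The most abundant sequence of mir-33a-5p took a larger part of its isomiR reads than is typical, in both libraries alike. It held 61.4% (59.6% to 63.2%) in lactation, against 59.5% (57.0% to 61.9%) in non-lactation, where the medians of known miRNAs with at least 20 isomiR reads were 45.5% and 46.0%. For mir-33b-5p the share was 45.1% (39.2% to 51.1%) in lactation, against 46.2% (30.1% to 62.8%) in non-lactation, close to those medians. For mir-122-5p it was 60.0% in each library, with an interval of 38.7% to 78.9% in lactation and of 26.2% to 87.8% in non-lactation. No difference in these shares between the libraries passed Fisher's exact test (Bonferroni-adjusted p over the 3 miRNAs 0.640 for mir-33a-5p and 1 for the other two).

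The number of different isomiRs of mir-33a-5p, called kinds in the tables, was low for its reads, above all in the non-lactation library. It was 25 kinds in the lactation library, where 33 known miRNAs with 0.5 to 2 times its isomiR reads had a median of 36, and 3 of them had fewer than 25. In the non-lactation library it was 7 kinds, fewer than in any of 31 such miRNAs, which had 11 to 36 kinds with a median of 18. Over 176 known miRNAs with at least 100 isomiR reads in each library, kinds in lactation over kinds in non-lactation had a median of 1.12. The value of mir-33a-5p, 3.57, had the rank 3 from the highest. These 176 were not matched by reads, and mir-33a-5p itself had more isomiR reads in lactation (2962) than in non-lactation (1578). The other arm of the same hairpin, CN-483-3p, had 20 kinds in lactation, against 17 in non-lactation, where the columns of the CN table that hold isomiR reads and kinds were told apart by their values. Kinds of mir-33b-5p (7 in lactation, 4 in non-lactation) and of mir-122-5p (2 in each library) lay within the range of miRNAs of like reads. These counts are a description, with no test.

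**Figure D5:**
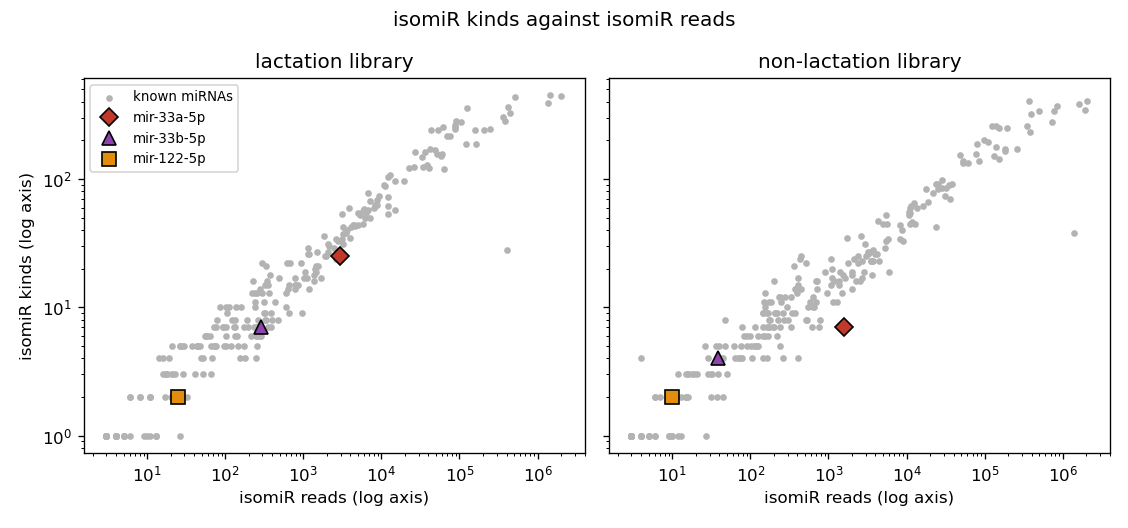
Number of isomiR kinds against isomiR reads (both log axes) of known miRNAs in the lactation library (left) and the non-lactation library (right), with 1 grey point per miRNA. mir-33a-5p (red diamond) had 25 kinds on the left, against 7 on the right, where it lay below every known miRNA of like reads, while mir-33b-5p and mir-122-5p lay inside the cloud.

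Entries named for mir-378 stood only among the conserved miRNAs (prefix PC), which the authors assigned by their likeness to precursors of other mammals, here the orangutan mir-378 and the human mir-378b. They lie outside the rule and are given because the family was looked for.
PC-378-5p: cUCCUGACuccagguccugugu
PC-378-3p: aCUGGACUuggauucagaaggca
PC-378b-3p: aCUGGACUuggaggcagaagga
The 3p strands shared the seed CUGGACU with 1 further entry, PC-422a-5p, which was named after its values were seen and had 0 reads in lactation, against 6 in non-lactation. PC-378-5p had 15 reads in lactation, against 18 in non-lactation, or 1.254 RPM against 1.13 RPM, a ratio of 1.11 (0.522 to 2.34). PC-378-3p had 8 reads in lactation and was listed at 0 in non-lactation. PC-378b-3p had 4 reads in lactation, against 3 in non-lactation. By leading-sequence reads none of these entries passed Fisher's exact test (Bonferroni-adjusted p = 1 for each). All stood at 1.254 RPM or less by these reads in both libraries. Before adjustment Fisher's exact test gave p = 0.00113 for PC-378-3p. That lies below the 0.0132 of mir-122-5p, so Benjamini-Hochberg adjustment called PC-378-3p as well. Over all isomiRs PC-378-3p had 21 reads in lactation and was listed at 0 in non-lactation.

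Known miRNAs with a reported part in cholesterol or fat handling other than mir-33 and mir-122 went both ways. The list held 20 names, which gave 21 miRNAs, and of these 10 were called higher in lactation, 4 lower and 7 not. With the entries mir-103-3p and mir-107-3p, listed with the same sequence, merged, 9 of 20 were called higher and 4 lower. Over all known miRNAs 82 of 283 (29.0%) were called higher and 63 (22.3%) lower. Of the 21, the 18 with at least 100 summed reads held all 10 higher and all 4 lower calls. Among all 273 miRNAs with at least 100 summed reads, 42.1% were called higher and 31.9% lower. Over the 18 miRNAs of the list with at least 100 summed reads the median log2 ratio was 0.30, beside 0.24 for all 273 such miRNAs. Over the whole list it was 0.38, beside 0.42 for all 883 tested, but there a listed 0 counts as the floor of 3 reads, and the second value is just what 3 reads in each library give. Of the names on the list, 3 also stand on the lists of blood or milk miRNAs below. Both mir-33 miRNAs had ratios above the list's median. Of the list, mir-148a-3p had a higher ratio than mir-33a-5p with leading-sequence reads and with all isomiRs (11.2, against 2.51 for mir-33a-5p). The order of the next ones depended on the reads counted: mir-20a-5p had a ratio of 2.87 (2.65 to 3.12) by its leading sequence and 2.15 over all isomiRs.

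Among the miRNAs of the list that repress ABCA1 or the LDL receptor in human or mouse cells, mir-148a-3p had the highest ratio. It had 60541 reads in lactation, against 10630 in non-lactation, a ratio of 7.601 (7.45 to 7.76). mir-128-3p, at 1315 reads in lactation and 679 in non-lactation, had a ratio of 2.58 (2.35 to 2.84), nearly that of mir-33a-5p, and one of 2.75 over all isomiRs. mir-145-5p had a ratio of 1.17, and its direction turned under TMM factors (log2 ratio -0.03), DESeq2 size factors (-0.05) and no scaling (-0.18). mir-106b-5p, with 1729 reads in lactation and 2436 in non-lactation, was not called at a ratio of 0.947. It was called lower with TMM factors (0.790), DESeq2 size factors (0.779) and no scaling (0.710), and its direction turned when all isomiRs were counted (1.09). mir-26a-5p was called lower, with 275447 reads in lactation and 895738 in non-lactation and a ratio of 0.410.

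Other members of the list act on fat cells or on lipoproteins. mir-143-3p, which promotes the maturing of fat cells, had a ratio of 2.35 (2.31 to 2.40). mir-185-5p, a repressor of the HDL receptor SCARB1 in human cells, had a ratio of 2.07 (1.99 to 2.14), and mir-30c-5p, which represses the lipoprotein assembly factor MTTP in the mouse, one of 1.30 (1.18 to 1.43). The paralogs mir-27a-3p and mir-27b-3p went opposite ways, at 1.31 (1.27 to 1.34) and 0.568 (0.555 to 0.582), and mir-130a-3p, a repressor of PPARG, was called lower at 0.571 (0.489 to 0.664). mir-30c-5p was no longer called with TMM factors (1.08), DESeq2 size factors (1.07) or no scaling, and with no scaling mir-27a-3p lost its call too, at log2 ratios of -0.03 for mir-27a-3p and -0.04 for mir-30c-5p. mir-107-3p was listed at 0 in lactation and at 115244 reads in non-lactation, but its listed sequence is that of mir-103-3p (180907 reads in lactation, 159117 in non-lactation), and the sum of both entries had a ratio of 0.88.

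The split of the list's calls depended on the scaling more than the mir-33 calls did. It was 8 higher and 7 lower with TMM factors, 8 and 8 with DESeq2 size factors and 7 and 8 with no scaling. Over all miRNAs, 61.6% of calls were higher in lactation with clean reads as totals, 52.5% with TMM factors, 51.7% with DESeq2 size factors and 46.4% with no scaling.

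Marker miRNAs of several cell types were set beside these values, against 29.0% called higher and 22.3% called lower among all known miRNAs. For abundant markers the nearer share is that of the 273 miRNAs with at least 100 summed reads, 42.1% higher and 31.9% lower. In bulk tissue fewer cells of a type and less RNA per cell cannot be told apart. The 5 miRNAs of the epithelial mir-200 family were all called higher in lactation, and their summed level was 12201 RPM in lactation, against 1903 RPM in non-lactation. The list of milk miRNAs held mir-148a-3p alone, which was called higher at 5060 RPM against 666 RPM. Of 5 striated muscle miRNAs 3 were called higher and none lower. Their sum was 4494 RPM against 702 RPM, nearly all of it mir-1-3p, at 4393 RPM against 691 RPM. Not called were mir-206-3p (13 reads against 5) and mir-133b-3p (10 reads against 7). The 7 blood miRNAs had 2 calls in each direction and summed to 156 RPM against 149 RPM, a sum that hides opposite differences. Called higher were mir-451-5p (74.3 RPM against 29.7 RPM) and mir-486-5p (16.2 RPM against 2.76 RPM). Called lower were mir-142-5p (35.4 RPM against 70.6 RPM) and mir-142-3p (13.5 RPM against 26.1 RPM). No call was made for mir-150-5p, mir-223-3p and mir-144-3p, the last at 3 reads in lactation and 0 in non-lactation. Of the 4 liver miRNAs, mir-194-5p was called higher (ratio 2.05) and mir-192-5p lower (0.630). The others, mir-885-5p (3.87) and mir-122-5p (3.34), had ratios above 1 and were not called. The sum of the 4 was 369.8 RPM against 564 RPM, but mir-192-5p alone supplied 350 RPM against 556 RPM of it. The part of these cell types in the ratios of mir-33a-5p, mir-33b-5p and mir-122-5p was not tested.

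The known miRNAs nearest to each of the 3 in log2 ratio were taken from the 186 others with at least 100 summed reads, a likeness over 2 libraries only. Nearest to mir-33a-5p were mir-128-3p, mir-345-3p, mir-365-3p, mir-499-5p and mir-451-5p, whose ratios ran from 2.50 to 2.60. Nearest to mir-33b-5p were mir-200c-3p (8.88), mir-106-5p (8.82), mir-339b-5p (7.70), mir-148a-3p (7.601) and mir-20b-5p (12.4). Nearest to mir-122-5p were mir-126-5p, mir-363-3p, mir-500-3p, mir-17-5p and mir-197-3p, with ratios from 2.97 to 3.27. The interval of mir-33a-5p held the ratios of 6 of the 186 and that of mir-33b-5p those of 9, whereas the interval of mir-122-5p held 88, so its ratio hardly singles out any neighbours.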

How the data were processed

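The MG of 1 lactating and 1 non-lactating cow gave a small RNA library each. Before deposit, the authors trimmed adaptors, dropped poor reads and those of other RNA types, and aligned what was left to miRBase 17.0 precursors and BTA 4.0. Per the file headers, the 3 tables hold read counts for the leading sequence of a miRNA and for its isomiRs, and the number of isomiR kinds. For CN miRNAs the isomiR columns were assigned by their values, as the headers would put isomiR sums below the leading sequence. The members and lists were chosen with earlier results of these data known. Named miRNAs are the members, other arms of their hairpins, entries with their seed or named PC-378, the lists, and the 5 nearest in ratio.

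RPM used the study's clean reads as totals. For the point value of a ratio 3 reads stood in place of a listed 0, while RPM, intervals and tests kept the 0. Fisher's exact tests and exact intervals came from scipy 1.17.1 under Python 3.11.15 and were tested on simulated data. The packages edgeR 4.0.16 and DESeq2 1.42.0 (R 4.3.3) served only to compute scaling factors, because dispersion cannot be estimated without replicates. Alternatives were 6 scalings, isomiR reads, Benjamini-Hochberg adjustment, read minimums, merged entries of one sequence and a narrower choice of miRNAs of like reads. RefSeq of ARS-UCD 2.0 gave gene names and neighbours only. No genome sequence was used.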

Additional observations from a re-analysis of the deposited data

How the results depend on the processing

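The ratios of mir-33a-5p and mir-33b-5p kept their direction and stayed called under every scaling, read count, adjustment and read minimum tried. mir-122-5p, with an unchanged ratio of 3.34, was called with Benjamini-Hochberg adjustment alone, and with at least 100 summed reads required it could not be tested. Benjamini-Hochberg adjustment took the miRNAs called higher in lactation to 268, against 154, since it is the less strict adjustment. With all isomiR reads the ratio of mir-33b-5p over that of mir-122-5p (2.93) and the 3p share of the mir-33a hairpin (-3.41 percentage points, lactation minus non-lactation, against -2.17) passed the threshold, and the cause was not tested. The lipid miRNAs called lower numbered 7 with TMM factors, 8 with DESeq2 size factors and 8 with no scaling, against 4, and the median log2 ratio of the list was -0.039 with no scaling; these settings shift all ratios down. Merging entries of one sequence and counting the other isomiRs alone were chosen after seeing the data. No alternative was run for known mir-378 entries, of which there were 0. No paired analysis was possible because there was 1 library per condition. Depth limits mir-122-5p, CN-203-3p and the PC-378 entries.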
